A study of Mus musculus with 16 samples.

Results

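A set of 1136 H3K27ac regions was followed that carried the mark in early Th2 cells lacking Bcl11b and in late Th2 cells that kept it, but not in early Th2 cells that kept it. H3K27ac islands of all 8 H3K27ac lists were merged where they overlapped or touched, which gave 35909 regions. A region was kept if it held an island in both early KO lists and both late WT lists and in neither early WT list, and 1136 regions met this (3.16% of all). Late KO lists were not used in the choice, and neither were the DNase lists. The presence of H3K27ac in early KO and late WT and its absence in early WT are therefore how the regions were picked and are described here without a test.

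The cells were CD4 T cells of Bcl11b fl/fl mice with an inducible CreERT2 on a C57BL/6 background, grown under Th2 conditions. Early KO cells were cultured for 4 days with 4-hydroxytamoxifen (4-OHT), the drug that switches CreERT2 on. Late KO cells were cultured for 4 days without the drug, rested for 1 day in medium with IL-2, and cultured for 4 more days with it, so their deletion was started only in the second culture. Late WT cells passed through the same steps as late KO cells, and early WT cells through the same step as early KO cells, both without 4-OHT. All groups carry the floxed alleles and CreERT2, and no WT library received 4-OHT, so loss of Bcl11b and exposure to the drug cannot be told apart. H3K27ac ChIP-seq and DNase-seq were each done on 2 replicates of each group, 16 libraries in all. The labels call the starting cells naive yet state a sort for high CD44, a protein of activated T cells. Whether replicates were separate cultures or animals is not stated, so a p-value covers no more than the variation of these libraries and that may be technical.

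Acetylation of lysine 27 of histone H3 marks promoters and enhancers in use, and it is laid down by the acetyltransferases p300 and CBP. DNase-seq finds open chromatin, where the enzyme can reach DNA, and chromatin at an enhancer is often open before it is acetylated. Bcl11b is a zinc finger transcription factor needed for commitment to the T cell lineage. Th2 cells are the helper T cells that depend on GATA3 and make IL-4, IL-5 and IL-13, and their enhancers take on acetylation over days of culture.

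The deposited files list islands, that is stretches of enriched windows, called in each library on its own. The H3K27ac lists held 26548 to 32112 islands covering 101 to 112 Mb. The DNase lists varied more, from 17397 to 39736 islands, and both late KO lists were the shortest, with 18812 and 17397. Early KO DNase lists held 24286 and 37956 islands, late WT lists 27416 and 36963, and early WT lists 37525 and 39736. Read numbers are not given, so the depth is unknown, and a region at 0 is one where no island was listed. No annotation of the build mm9 was at hand, so regions are named by their mm9 position, cell type markers and the Bcl11b gene were not analysed here, and no gene is assigned to a region.

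The 1136 regions made up 33.8% of the 3362 regions found in both early KO and neither early WT list, and 38.1% of the 2985 regions found in both late WT and neither early WT list. They were small and of low rank. Their median width was 3.0 kb (0.4 to 14.2 kb), against 3.2 kb for all merged regions and 4.6 kb for the 18384 regions found in all 8 lists. The mean score percentile of a region over the 4 early KO and late WT lists, where 100 is the strongest island of a list, had a median of 25.3 and ran between 3.86 and 72.3. Together they covered 3.9 Mb, and every chromosome held some, from 2.03% of the regions of chromosome 17 to 4.39% of those of chromosome 13 among the autosomes. Just outside the rule, 873 regions held an island in 1 of the 2 early WT lists, 579 lacked 1 early KO list and 475 lacked 1 late WT list. The 873 with 1 early WT list had a median percentile of 27.3 and a median of 1.6 kb covered in the early WT list that held them. Without the second early WT list, 1762 regions met the rule.

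The choice was also made on 1 replicate and looked up in the other. These are the same lists that the rule used, and the regions with the pattern in both replicates are the 1136 themselves. The shares therefore describe how far the replicates matched and lend the set no separate support. All regions include the 18384 found in all 8 lists, which cannot have the pattern. Of 2494 regions with the pattern in replicate 1 of the 3 groups, 45.5% had it in replicate 2, where 5.41% of all regions had it. Of 1944 regions with the pattern in replicate 2, 58.4% had it in replicate 1, where 6.95% of all regions had it. In replicate 2, 72.8% of the regions chosen on replicate 1 held an early KO island, 96.6% a late WT island and 29.9% an early WT island. In replicate 1, 95.6% of the regions chosen on replicate 2 held an early KO island, 73.9% a late WT island and 15.7% an early WT island. The group that most often lost the pattern thus differed between the replicates.

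**Figure D1:**
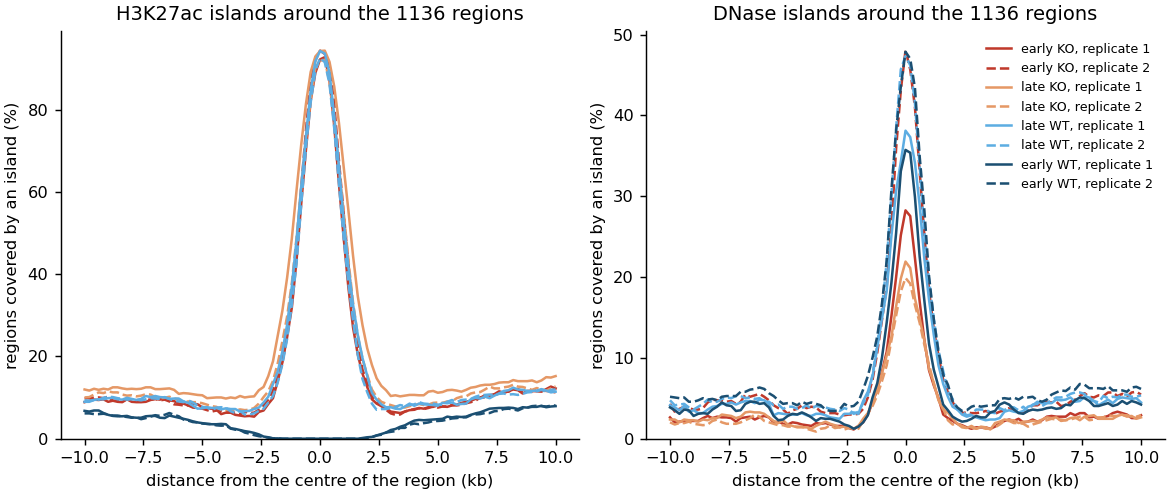
Share of the 1136 regions covered by an island (%) against distance from the region's centre (kb), for H3K27ac on the left and DNase on the right, 1 line per library (solid replicate 1, dashed replicate 2). Early WT H3K27ac lies at 0 at the centre by the rule, while 35.7% and 47.9% of the centres were covered by early WT DNase islands.

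Late KO cells, the group left out of the choice, carried H3K27ac at nearly all of these regions. Both late KO lists held an island in 1074 regions (94.5%, against 69.1% of all merged regions), 1 list in 40 (3.52%) and neither in 22 (1.94%). Among the 1751 regions found in both early KO lists and in neither WT group, 41.7% were in both late KO lists, and among the 1270 found in both late WT lists but in neither early KO nor early WT list, 46.5% were. Regions called in both early KO and both late WT lists were common in late KO whatever early WT held. The share in both late KO lists was 93.7% of the 873 with 1 early WT list and 97.5% of the 18853 with both. It was 0.378% of the 793 regions found in both early WT lists and in neither early KO nor late WT list.

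**Figure D2:**
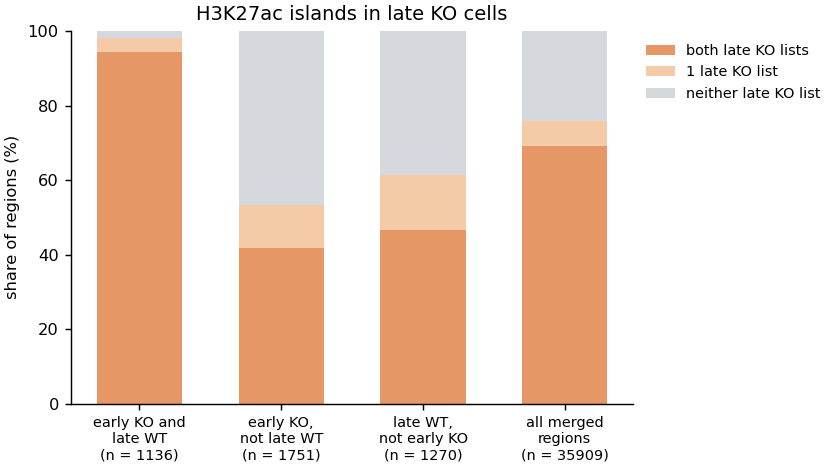
Share of regions (%) with an H3K27ac island in both, 1 or neither late KO list, for the 1136 regions, the 1751 found in early KO but not late WT, the 1270 found in late WT but not early KO, and all merged regions. Both late KO lists held 94.5% of the 1136 regions, against 41.7% and 46.5% of the sets found in early KO or late WT alone.

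Coverage was of like size in the 3 groups that carried the mark. Islands covered on average 2.2 and 2.32 kb of a region in the early KO libraries, 2.82 and 2.39 kb in the late KO libraries, 2.38 and 2.19 kb in the late WT libraries, and 0 in early WT. The medians were 1.8 and 2.0 kb for early KO, 2.4 and 2.0 kb for late KO, and 2.0 and 1.8 kb for late WT. The highest single value was 13.2 kb, in late KO. On the mean both late KO libraries lay above the early KO and late WT libraries, the second only narrowly, while on the median the 3 groups overlapped.

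Differences between late KO and late WT at single regions were tested with limma on log2(kb covered + 0.5) over all 31629 H3K27ac regions covered in at least 2 lists, at a Benjamini-Hochberg adjusted p of 0.05. Of the 1136 regions, 51 rose in late KO against late WT (4.49%) and 23 fell (2.02%), where 5.07% of all regions tested rose and 3.39% fell. The median log2 difference was 0.13 over the 1136 and 0.00 over all regions tested. The shares called were thus no larger than the background. Since an island in both late WT lists was required of these regions, the room to rise was limited by the rule, and a region with no late KO island could only fall. The split turned without either late KO library, to 18 rises and 42 falls without the first (3.81% and 3.48% of all) and 24 rises and 38 falls without the second (3.44% and 3.72% of all). Without the first late WT library it was 22 rises and 25 falls, or 47 calls (7.24% of all), against 74 with it (8.46% of all). With the upper 50% of each list 220 of the 1136 passed the filter, which a region could do through the late KO lists alone, and 91 rose and 7 fell (41.4% and 3.18% of the 220, against 3.49% and 2.6% of all). Lists of equal length again gave 51 higher and 23 lower (5.76% and 4.28% of all).

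The region with the largest rise in late KO lies on chromosome 4 at 107801601 to 107811000. H3K27ac covered 9.0 and 8.8 kb of it in early KO cells, 9.2 and 7.4 kb in late KO cells, and 2.6 and 1.2 kb in late WT cells. Its log2 difference of late KO and late WT was 1.93 ± 0.28 (SE, limma adjusted p = 0.00776), and the call was lost without either late KO replicate and with lists of equal length. A second, on chromosome 13 at 3771601 to 3784800, was 1 of the 3 widest, with 10.2 and 8.4 kb in early KO cells, 10.2 and 11.6 kb in late KO cells, and 2.4 and 3.6 kb in late WT (late KO against late WT, log2 1.73 ± 0.22, limma adjusted p = 0.00489), a call lost with the upper 50% of each list. Another, on chromosome 4 at 133717801 to 133724400, had 6.6 and 6.2 kb in early KO cells, 6.6 kb in both late KO libraries, and 2.0 and 1.4 kb in late WT (late KO against late WT, log2 1.71 ± 0.17, limma adjusted p = 0.00168). In all 3 regions the late KO and early KO libraries lay above both late WT libraries without overlap.

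The 5 regions with the largest fall in late KO held no late KO island at all. On chromosome 19 at 44123801 to 44128000, H3K27ac covered 2.2 and 2.4 kb in early KO cells, was listed at 0 in both late KO libraries and covered 4.0 and 3.6 kb in late WT. On chromosome 1 at 38292401 to 38295200 it covered 2.2 and 2.8 kb in early KO cells, was at 0 in late KO and covered 2.8 and 2.2 kb in late WT. The rule required the late WT islands, so no p is given for these falls. Both named regions were thus listed in early KO and in late WT, and had no listed island where the deletion was started late. They were of low rank, with mean percentiles of 12.8 and 10.3, and neither fall was called with lists of equal length.

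The 22 regions with no late KO island were of low rank, with a median mean percentile of 12.6 against 26.1 for the 1074 found in both late KO lists. The strongest by early KO and late WT score was on chromosome 6 at 67193601 to 67195800, with 1.6 kb in both early KO libraries and 2.2 and 1.4 kb in late WT. The next, on chromosome 15 at 58360401 to 58363000, had 1.8 and 2.6 kb in early KO cells and 1.8 and 2.2 kb in late WT. Its DNase islands covered 0.8 kb in both early KO libraries, 0 in both late KO libraries, 1.0 and 1.8 kb in late WT cells, and 0.6 and 1.4 kb in early WT. There the open site was listed in every group except late KO. Of the 22 regions, 59.1% held a DNase island in any of the 8 lists, against 87.3% of the 1074.

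Early KO and late WT were then compared for size, which the rule did not fix. Of the 1136 regions, 44 were higher in early KO than in late WT (3.87%) and 56 lower (4.93%), where 9.49% of all regions tested were higher and 7.17% lower. The median log2 difference was -0.04, against -0.01 over all regions. Both shares lay below those of all regions, but the rule required islands in all 4 of these lists, and the difference between the shares was not tested. Without the first or the second early KO library 64 and 61 regions were called in both directions together (14.2% and 12.5% of all), and without the first late WT library 54 (13.7% of all). Scaling moved the split: quantile normalization gave 37 higher and 79 lower (9.36% and 7.8% of all), and lists of equal length gave 52 higher and 102 lower (10.3% and 9.06% of all regions).

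In late KO, the size of most called regions lay nearer to whichever of the other groups was larger. At the 44 regions higher in early KO, mean coverage was 4.53 and 4.82 kb in early KO cells, 4.69 and 4.37 kb in late KO cells, and 2.02 and 2.03 kb in late WT. The late KO mean was nearer to early KO in 36 of them and nearer to late WT in 8. At the 56 regions lower in early KO, mean coverage was 2.14 and 2.26 kb in early KO cells, 4.91 and 4.31 kb in late KO cells, and 5.17 and 4.78 kb in late WT. The late KO mean was nearer to late WT in 43, nearer to early KO in 12 and tied in 1. Over the 1036 regions not called, it was nearer to early KO in 455 and nearer to late WT in 471. Nearness was counted only in the chosen set, not over all regions called in this contrast. Whether it is particular to the chosen set was therefore not tested.

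**Figure D3:**
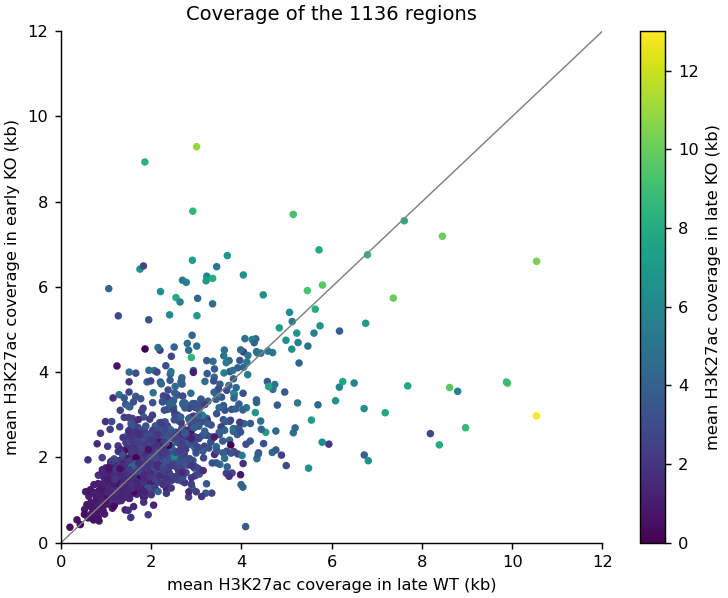
Mean H3K27ac coverage (kb, n = 2 libraries) of each of the 1136 regions in early KO (vertical) against late WT (horizontal), coloured by mean coverage in late KO, with the line of equality in grey. Points are shifted by up to 0.05 kb to separate ties. Late KO coverage is high both for regions far above and for regions far below the line.

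The largest excess of early KO was on chromosome 4 at 128908001 to 128914600. H3K27ac covered 5.4 and 6.6 kb in early KO cells, 5.2 and 3.6 kb in late KO cells, and 0.8 and 1.4 kb in late WT (early KO against late WT, log2 2.0 ± 0.23, limma adjusted p = 0.00157). On chromosome 7 at 79253401 to 79260600, islands covered 6.0 and 7.0 kb in early KO cells, 3.2 and 2.2 kb in late KO cells, and 1.6 and 2.0 kb in late WT (early KO against late WT, log2 1.57 ± 0.17, limma adjusted p = 0.00126), so this was a region where late KO lay nearer to late WT.

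The largest deficit of early KO was on chromosome 12 at 117028601 to 117033600. H3K27ac covered 0.4 kb in both early KO libraries, 4.2 and 3.2 kb in late KO cells, and 4.2 and 4.0 kb in late WT (early KO against late WT, log2 -2.39 ± 0.15, limma adjusted p = 0.000339). On chromosome 15 at 78140801 to 78155000, the widest of the 1136 regions, islands covered 2.0 and 4.0 kb in early KO cells, 13.2 and 12.8 kb in late KO cells, and 12.2 and 8.8 kb in late WT (early KO against late WT, log2 -1.74 ± 0.28, limma adjusted p = 0.00747). On chromosome 9 at 123874401 to 123881200, islands covered 1.6 and 2.2 kb in early KO cells, 6.6 kb in both late KO libraries and 6.8 kb in both late WT libraries (early KO against late WT, log2 -1.66 ± 0.14, limma adjusted p = 0.00053). At these regions an island was present early in KO, but it was far narrower than in either late group. The calls given for early KO against late WT held without each library in turn.

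The 8 regions of highest rank by score show how the 2 assays ran at the strongest sites. The first, on chromosome 8 at 10582401 to 10592400, had a mean percentile of 72.3. H3K27ac covered 3.2 and 2.2 kb of it in early KO cells, 9.4 and 8.0 kb in late KO cells, 9.4 and 8.6 kb in late WT cells and 0 in early WT. Its early KO coverage was below late WT (log2 -1.63 ± 0.19, limma adjusted p = 0.00167), a call lost with the upper 50% of each list. DNase islands covered 1.2 and 1.0 kb in early KO cells, 1.4 and 1.0 kb in late KO cells, 2.2 and 1.2 kb in late WT cells, and 1.0 kb in both early WT libraries. The site was thus listed as open in every library, early WT included.

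On chromosome 16 at 96591001 to 96596600, H3K27ac covered 4.4 and 4.6 kb in early KO cells, 5.4 and 4.8 kb in late KO cells, 5.4 and 3.8 kb in late WT cells and 0 in early WT. DNase islands covered 2.4 and 3.8 kb in early KO cells, 2.2 and 2.4 kb in late KO cells, 3.0 and 2.4 kb in late WT cells, and 2.0 and 2.6 kb in early WT, so the groups overlapped. The region on chromosome 14 at 71344401 to 71352800 was the only one of the 8 with no early WT DNase island. Its H3K27ac coverage was 5.6 and 6.0 kb in early KO cells, 8.4 and 7.8 kb in late KO cells, and 2.2 and 2.8 kb in late WT. DNase islands covered 1.0 and 1.6 kb in early KO cells, 0.8 and 2.0 kb in late KO cells, 0.8 and 0.6 kb in late WT cells and 0 in early WT. DNase was thus lowest in early WT at this region with the lists as deposited, and H3K27ac was at 0 there by the rule. In lists of equal length DNase was at 0 in both late WT libraries as well.

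The other 5 lie on chromosome 10 at 4794401 to 4799200, chromosome 15 at 25489201 to 25495000, chromosome 1 at 75494001 to 75497200, chromosome 11 at 103916401 to 103922000 and chromosome 1 at 146199401 to 146205200. DNase islands were present in both early WT lists at 7 of the 8 regions, covering up to 2.6 kb. When every DNase list was shortened to its 17397 strongest islands, the length of the shortest list, 7 of the 8 held no early WT island and the other, on chromosome 10, kept 0.6 kb in 1 early WT library. At the chromosome 16 region the shortened lists still gave 2.4 and 3.8 kb in early KO cells, 2.2 and 2.4 kb in late KO cells, and 3.0 and 2.4 kb in late WT cells, against 0 in early WT. In that setting early KO and late WT averaged were above early WT at this region (limma adjusted p = 0.00619). With early WT at 0 in both libraries, this p rests on the spread shared across regions. The call did not hold without either early WT library.

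**Figure D4:**
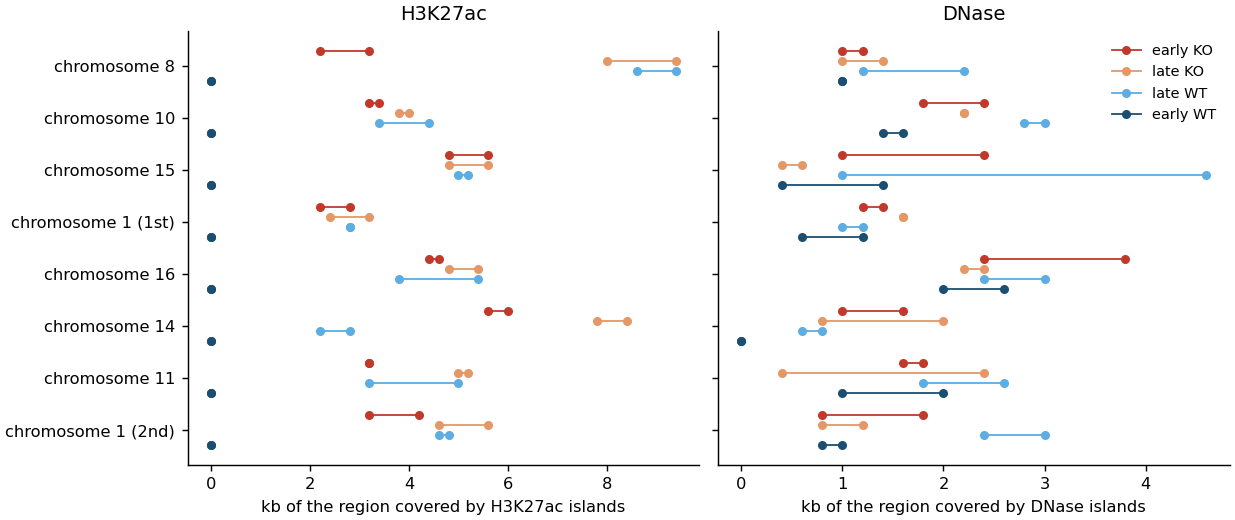
Kb covered by H3K27ac islands (left) and DNase islands of the lists as deposited (right) at the 8 regions of highest rank, named by chromosome and ordered by rank from the top. Each pair of joined points is the 2 libraries of a group; early WT is at 0 for H3K27ac at every region, but only at 1 region for DNase.

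With the DNase lists as deposited, both early WT lists held an island in 648 of the 1136 regions (57.0%, against 63% of all merged regions), and neither did in 342 (30.1%, against 29.5%). All 8 DNase lists held an island in 216 (19%, against 32.5% of all) and none of the 8 in 156 (13.7%, against 21.0%). These shares depended on list length, and the early WT lists were long. H3K27ac coverage hardly differed with openness. Regions open in both early WT lists averaged 2.16 and 2.30 kb in early KO cells and 2.34 and 2.15 kb in late WT, and regions open in neither averaged 2.19 and 2.36 kb in early KO cells and 2.43 and 2.24 kb in late WT. Of the 342 not open in early WT, 7.89% were open in both early KO lists and 14.6% in both late WT lists, against 4.77% and 4.88% of the 10596 among all merged regions that were not open in early WT.

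With the lists as deposited, a DNase island was present in 46.7% and 73.9% of the regions in early KO, 36.9% and 32.4% in late KO, 56.6% and 73.9% in late WT, and 59.7% and 67.3% in early WT. Over all merged regions the shares were 50% and 66.6%, 40.9% and 38.5%, 55.2% and 65.6%, and 65.0% and 68.5% in the same order. These shares moved with list length, and early KO, late WT and early WT overlapped. The longest lists of these groups, second replicates of early KO and late WT with 37956 and 36963 islands and early WT with 37525 and 39736, are close in length. Among those the early KO and late WT shares, both 73.9%, lay above both early WT shares.

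Cut to 17397 islands each, the lists set early WT apart from the other groups. The share of the 1136 regions with a DNase island was 30.4% and 32.0% in early KO, 32.9% and 32.4% in late KO, 30.4% and 30.8% in late WT, and 19% and 20% in early WT. Both early WT libraries lay below the other 6, while over all merged regions the 8 libraries stood between 38.5% and 40.8%. A cut to 10000 islands gave 11.6% and 12% in early KO, 13.2% and 14.4% in late KO, 11.4% and 11.5% in late WT, and 4.40% and 5.02% in early WT. Cuts to 5000 and 15000 kept both early WT libraries lowest. The first of these cuts was among the planned settings and the others were added after the data were seen. Cut lists compare the rank of a site among the open sites of its library, not the amount of signal, and the authors' score was used only for that ranking.

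The 2 related sets of regions differed from this. The 1751 found in early KO but not late WT had a DNase island, in lists of equal length, in 20.8% and 23.0% in early KO, 14.8% and 15.9% in late KO, 4.68% and 4.34% in late WT, and 6.4% and 6.45% in early WT. The 1270 found in late WT but not early KO had one in 3.15% and 3.86% in early KO, 8.27% and 9.29% in late KO, 14.0% and 13.9% in late WT, and 3.94% and 4.33% in early WT. In each set DNase islands were most frequent in the group that chose it by H3K27ac.

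**Figure D5:**
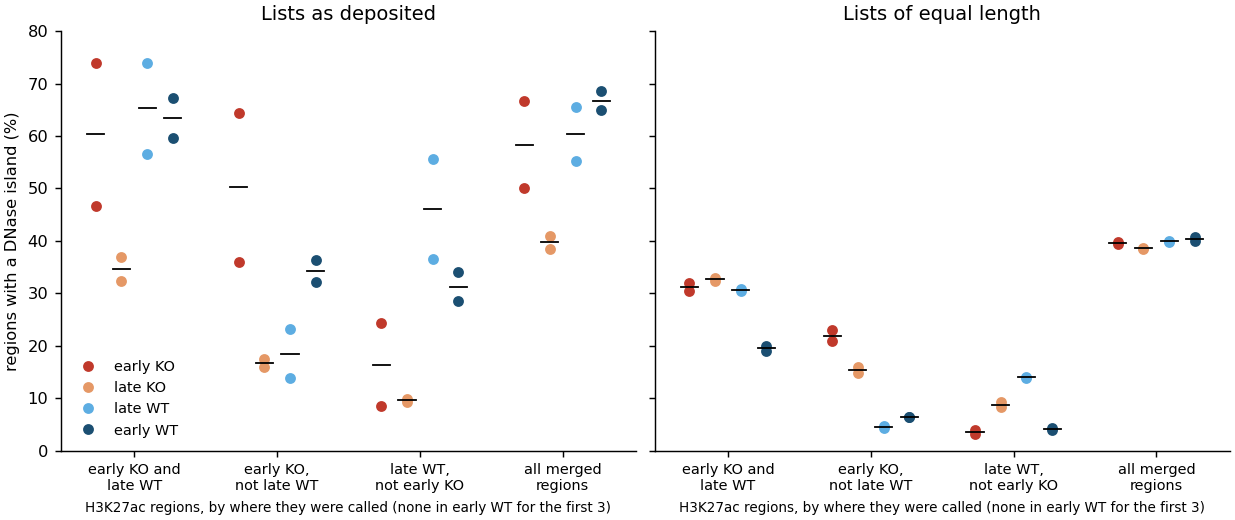
Share of regions with a DNase island (%) in each library (points) with the group mean of 2 libraries (lines), for lists as deposited (left) and lists cut to 17397 islands (right), by set of H3K27ac regions. In lists of equal length, early WT lies at 19% and 20% for the 1136 regions and the other 6 libraries between 30.4% and 32.9%, while all merged regions give 38.5% to 40.8%.

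Presence in both replicates was also counted. In lists of equal length, 43 of the 1136 regions (3.79%) held a DNase island in both early KO and both late WT lists and in neither early WT list, where 0.51% of all merged regions did. The opposite, both early WT lists and none of those 4, was found in 4 regions (0.352%), where 0.986% of all regions had it. Both early KO and neither early WT list held 106 regions (9.33%, against 2.49% of all), and the opposite 11 (0.968%, against 2.56%). Both late WT and neither early WT list held 109 (9.60%, against 2.48% of all), and the opposite 17 (1.5%, against 2.52%). The 2 contrasts share the early WT libraries.

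Lists as deposited gave the full pattern in 5 regions (0.440%, against 0.131% of all), named here after their values were seen. They are the chromosome 14 region above, chromosome 2 at 24724201 to 24729000, chromosome 19 at 55210401 to 55215000, chromosome 19 at 10351001 to 10355800, and chromosome 6 at 137729801 to 137734800. At the first region on chromosome 19 named here, DNase islands covered 1.2 and 1.4 kb in early KO cells, 1.6 and 1.0 kb in late KO cells, 1.4 kb in both late WT libraries and 0 in early WT. H3K27ac covered 4.2 and 3.6 kb there in early KO cells, 4.6 and 4.2 kb in late KO cells, and 3.6 and 3.2 kb in late WT. With the lists as deposited, DNase was thus at 0 in early WT and listed in every other library at this site. H3K27ac was at 0 in early WT and present in early KO and late WT by the rule. None of the 5 regions kept the full DNase pattern in lists of equal length. At this site DNase islands then covered 1.4 kb in the first late WT library and 0 in the second.

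DNase coverage was tested with limma in the same way, over 25850 regions with an island in at least 2 DNase lists. Of these, 887 were among the 1136. A region could pass this filter through the lists of a single group, and in a contrast with that group its direction was then largely fixed. This limit holds for each DNase contrast below. With lists as deposited, the mean of early KO and late WT was above early WT at 5 regions and below it at 8, where 0.162% of all regions tested rose and 1.79% fell. Early KO was above early WT at 12 regions and below at 10 (1.02% and 1.36% of all), and late WT was above early WT at 15 and below at 10 (0.843% and 2.45% of all, 3.29% in both directions). The median log2 differences were 0.11, 0.15 and 0.11, against -0.06, -0.05 and -0.03 over all regions. Without either early WT library, either late KO library or the first late WT library, these 3 contrasts called 0 of the 1136 regions. Early KO against early WT also called 0 without either early KO library, and late WT against early WT 0 without the second late WT library.

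In lists of equal length 17362 regions were tested, 505 of them among the 1136. Early KO and late WT averaged were above early WT at 26 regions and below at 3, where 1.15% of all regions tested rose and 2.08% fell. Early KO was above early WT at 63 and below at 6 (3.38% and 2.64% of all), and late WT was above early WT at 42 and below at 5 (2.26% and 3.35% of all). Regions counted here passed the filter only if they held an island in some group, so the 505 are not all 1136. A region that passed through early KO or late WT lists alone, with early WT at 0, could hardly do other than rise. How many of the rises were of this kind was not counted, so the counts are a description. Without either early WT replicate, 0 of the 1136 were called in these 3 contrasts. The KO minus WT difference was called as changed between early and late, as an interaction, at 12 regions upward and 8 downward (1.8% and 0.795% of all), and at 0 with the lists as deposited. These interaction calls fell to 0 with the replicate block and did not hold with any single library left out. With the replicate block the averaged contrast called 16 regions higher and 2 lower (0.386% and 1.38% of all). Without each library other than early WT in turn, it called fewer regions higher than with all libraries. Early KO against early WT called 0 without either early KO replicate, and late WT against early WT called 0 without either late WT replicate.

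Single regions show the kinds of DNase change. On chromosome 6 at 134754001 to 134758000, DNase islands covered 3.2 and 2.6 kb in early KO cells and 0 in each library of the other 3 groups. It passed the filter on low values only through early KO, so no p is given. H3K27ac covered 3.6 and 4.0 kb there in early KO cells, 4.0 and 3.8 kb in late KO cells, and 3.2 and 2.2 kb in late WT. The region kept acetylation in late KO and late WT with no DNase island listed. On chromosome 10 at 57440601 to 57448800, DNase islands covered 0 and 1.2 kb in early KO cells, 2.0 and 1.4 kb in late KO cells, 3.6 and 5.0 kb in late WT cells and 0 in early WT (late WT against early WT, limma adjusted p = 0.0227). H3K27ac covered 4.0 and 6.2 kb there in early KO cells, 7.0 and 7.4 kb in late KO cells and 6.6 and 7.0 kb in late WT cells. The DNase difference did not hold in lists of equal length, where both late WT libraries were at 0.

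At some regions DNase coverage was lower where acetylation was present. On chromosome 5 at 143576001 to 143585000, DNase islands covered 0 and 0.6 kb in early KO cells, 0 in late KO cells, 1.2 and 3.0 kb in late WT cells, and 3.8 and 4.4 kb in early WT cells (early KO against early WT, log2 -2.38 ± 0.43, limma adjusted p = 0.039). H3K27ac covered 6.8 and 8.8 kb of it in early KO cells, 8.6 and 8.4 kb in late KO cells, and 2.6 and 3.2 kb in late WT cells. On chromosome 2 at 144155601 to 144158200, DNase was at 0 in each early KO, late KO and late WT library and covered 1.6 and 2.4 kb in early WT. It passed the filter only through early WT, so no p is given. In lists of equal length neither region held a DNase island in any library, so both differences rest on islands of lower rank. The DNase calls given for chromosome 10 and chromosome 5 were lost, with the lists as deposited, without most of the single libraries left out in turn.

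Between late KO and late WT, DNase coverage fell in late KO at 43 regions and rose at 6, where 4.39% of all regions tested fell and 0.557% rose. The median log2 difference was -0.35, against -0.23 over all. The 2 late KO lists were also the shortest, and in lists of equal length the split turned, with 47 regions higher in late KO and 9 lower (3.35% and 1.89% of all). Those equal-length calls were lost without either late KO or either late WT library. The settings that follow are for the lists as deposited. Without centring of the libraries 5 were higher and 87 lower (0.418% and 9.4% of all), and with quantile normalization 3 and 2 (0.174% and 0.433% of all). Without either late WT or either early WT library 0 were called, without the first or the second late KO library 19 and 4 (2.93% and 1.06% of all), and without the first or the second early KO library 102 and 111 (8.94% and 9.69% of all). The direction of this contrast over the set thus turned with the handling of list length.

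The regions with the largest change in each direction kept it in lists of equal length. With the lists as deposited, both calls were lost without either late WT or either early WT library. On chromosome 11 at 70601801 to 70606800, DNase islands covered 2.2 and 3.2 kb in early KO cells, 0 in late KO, 4.0 kb in both late WT libraries, and 2.2 and 3.6 kb in early WT cells (late KO against late WT, limma adjusted p = 0.0119). H3K27ac still covered 4.4 and 4.2 kb in late KO cells, against 4.6 and 4.0 kb in late WT cells. On chromosome 16 at 5027201 to 5032400, DNase islands covered 0.6 kb in both early KO libraries, 2.2 and 1.8 kb in late KO cells, and 0 in late WT and early WT (late KO against late WT, limma adjusted p = 0.0149). H3K27ac covered 3.4 and 4.2 kb there in early KO cells, 5.0 and 4.8 kb in late KO cells, and 3.2 and 2.2 kb in late WT cells. At the first site acetylation was kept where DNase was not listed, and at the second both were higher in the KO groups.

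The regions were mostly isolated. With regions at most 50 kb apart joined into stretches, 907 of 1136 (79.8%) stood alone, 82 stretches held 2 regions and 20 held 3 or more, with 4 as the most. The median distance to the nearest early WT H3K27ac island was 15.5 kb. An early WT island lay within 5 kb of 20.1% of the regions, and 20.4% lay more than 50 kb from any.

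The 4 stretches that held the most regions had 4 each. The one on chromosome 6 from 122207601 to 122248400 had the most length in the 1136 regions (25.6 kb), and all H3K27ac islands in it summed to 18 and 21.2 kb in early KO cells, 25 and 22.2 kb in late KO cells, 18.6 and 14.0 kb in late WT cells, and 0 in early WT. DNase islands in it summed to only 1.8 and 2.2 kb in early KO cells, 2.8 and 1.6 kb in late KO cells, 2.6 and 2.8 kb in late WT cells, and 1.6 and 0.4 kb in early WT. The stretch on chromosome X from 141768201 to 141799600 had 7.6 and 8.8 kb of H3K27ac in early KO cells, 18.2 and 16.8 kb in late KO cells, 20.0 and 17.0 kb in late WT cells, and 0 in early WT. There early KO held the mark at less than late WT in both libraries. The stretch on chromosome 10 from 76627801 to 76690400 spanned 62.6 kb and had 19.4 and 21.2 kb in early KO cells, 28.2 and 26.4 kb in late KO cells, 20.4 and 18 kb in late WT cells, and 5.6 and 5.2 kb in early WT cells, whose islands lay between the regions. The stretch on chromosome 4 from 9519801 to 9571400 had 8.4 and 7.2 kb in early KO cells, 11.4 and 9.0 kb in late KO cells, 7.8 and 8.4 kb in late WT cells, and 0 in early WT.

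H3K27ac around the regions followed the same order at a smaller size. Within 25 kb on each side, outside the region itself, islands averaged 4.64 and 4.71 kb in early KO cells, 5.79 and 5.06 kb in late KO cells, 4.91 and 4.85 kb in late WT cells, and 3.59 and 3.42 kb in early WT. At the 907 regions that stood alone, the flanks averaged 4.37 and 4.41 kb in early KO cells, 5.13 and 4.54 kb in late KO cells, 4.42 and 4.44 kb in late WT cells, and 3.84 and 3.68 kb in early WT. Both early WT libraries were lowest in each case. Since a merged region ends where no list has an island, and early WT was required to be empty in it, these flanks are a description with no test.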

How the data were processed

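H3K27ac ChIP-seq and DNase-seq lists of mouse CD4 T cells were used, 16 libraries in 4 groups of 2 per assay. Reads were handled with CASAVA 2.18, Bowtie2 and SICER 1.1 on mm9, per the submitters' processing notes. List names give 200-bp windows, a 400-bp gap and an E-value of 1. Each deposited list holds position and a score, the authors' own value from the caller, used here only to rank islands within a list. No control library is named in the sources used here.

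Island positions were written 1-based. Coverage was the kb of a region under islands, taken as log2(kb + 0.5). Regions covered in at least 2 of 8 lists went into a limma fit (version 3.58.1, lmFit and trended eBayes) of all 4 groups of an assay, after centring on the median of regions covered in all 8, with Benjamini-Hochberg adjustment over all regions tested and a threshold of 0.05. Where both libraries of a group are at 0, the p rests on the spread shared across regions and a fold depends on the 0.5 kb added. A fold at such a region is given only where processing settings are compared. The fit was also run on simulated data for early KO against early WT, with 200 regions changed. It called 17.5% of the changed DNase regions at a log2 of 1 and 98% at a log2 of 2 (16992 regions). In H3K27ac it called 93% and 100% (22049 regions). Both simulated sets were smaller than the 25850 DNase and 31629 H3K27ac regions of the real fits. At the chosen regions, median DNase coverage was 0 kb in the first early KO and both late KO libraries, and at most 0.8 kb in the others. Recovery at regions of such low coverage was not tested, so these rates are not the power there. Software was Python 3.11.15 (matplotlib 3.10.9, scipy 1.17.1, pandas 2.3.3, numpy 2.4.6) and R 4.3.3.

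The regions, tests and settings were chosen with earlier results of these data known. Named were the 8 regions of highest mean percentile, the 5 highest without a late KO island, the 3 widest, the 4 stretches with most regions, and the 5 largest log2 differences per direction and contrast. For brevity the text gives 1 to 3 of each 5, 2 of the 5 without a late KO island and 2 of the 3 widest, a choice made once values were known. Alternatives were each library left out, a replicate block, another pseudocount, no filter, no centring, quantile normalization, the upper 50% of each list, lists of equal length, islands within 1 kb merged and at least 25% of a region covered.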

Additional observations from a re-analysis of the deposited data

Results flagged for a closer look

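Among the regions picked for naming, a single result was singled out because the KO minus WT difference in DNase had opposite signs early and late. The rest of the 1136 regions were not screened for this. At the region on chromosome 10 from 4794401 to 4799200, DNase islands covered 2.4 and 1.8 kb in early KO and 1.4 and 1.6 kb in early WT, while they covered 2.2 kb in both late KO libraries and 3.0 and 2.8 kb in late WT. The KO minus WT difference was 1.30 kb smaller late than early (-1.30 kb), with early KO above early WT and late KO below late WT in every library of the lists as deposited. In lists of equal length the early groups overlapped, with 2.4 and 0 kb in early KO and 0 and 0.6 kb in early WT, and the interaction was -0.89 ± 1.125 (SE, log2 scale, limma adjusted p = 0.851). With the lists as deposited, the limma interaction was -0.62 ± 0.37 (SE, log2 scale) with an adjusted p of 0.572, and that fit called 0 of all 25850 regions for the interaction, while at an unadjusted p under 0.05, 19 of the 887 tested among the 1136 were higher and 127 lower (2.14% and 14.3%, against 4.11% and 10% of all regions). The median interaction over all regions was itself below 0 (-0.14). With lists of equal length 20 of the 505 tested were called for the interaction, 12 higher and 8 lower (1.8% and 0.795% of all regions tested). Those calls fell to 0 with the replicate block and did not hold with any single library left out.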

How the results depend on the processing

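Depth is unknown, and DNase results moved with how list length was handled; H3K27ac lists were close in length. The number of regions was 1136 to 2494 with libraries or replicates left out, 409 with the upper 50% of each list, 1047 with islands within 1 kb merged, 887 with lists of equal length and 1176 with at least 25% of a region covered. The share in both late KO lists was 88.5% to 96.4% with libraries or replicates left out, 96.6% with the upper 50%, and 94.1% to 94.3% in the other settings.

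The mean share with a DNase island (as deposited, early KO 60.3%, late KO 34.6%, late WT 65.3%, early WT 63.5%) was 26.5%, 11.4%, 27.5% and 24.2% in that order with the upper 50% of each list, and with lists of equal length 31.2% in early KO, 30.6% in late WT and 19.5% in early WT. Of cuts to fixed numbers of islands, those to 5000 gave 3.08% in early KO, 4.31% in late KO, 1.85% in late WT and 0.792% in early WT, those to 10000 gave 11.8%, 13.8%, 11.5% and 4.71% in that order, those to 15000 gave 24.7%, 25.6%, 24.2% and 13.1%, and those to 2000 gave 0.396%, 0.792%, 0.352% and 0.088%. With 1 library left out it ran from 46.7% to 73.9% in early KO, 32.4% to 36.9% in late KO, 56.6% to 73.9% in late WT and 59.7% to 67.3% in early WT.

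Regions called in both directions together were counted in each DNase setting. Over all regions tested, the shares called were 1.95%, 2.38%, 3.29% and 4.95% with lists as deposited, in the order of the contrasts below. With lists of equal length they were 3.23%, 6.02%, 5.61% and 5.24%. Shares of all regions in the other settings are not set beside the counts, and they could move too. The counts thus show only how far calls depended on the setting. The mean of early KO and late WT against early WT called 13, with 7 at a pseudocount of 2 kb, 8 without the filter, 25 without centring, 0 with quantile normalization, 35 with the upper 50%, 29 with lists of equal length and 0 to 26 with a library left out. Early KO against early WT called 22, with 9, 4 and 6 at the pseudocount, without the filter and with quantile normalization, 42 with the upper 50%, 69 with lists of equal length and 0 to 24 with a library left out. Late WT against early WT called 25, with 0, 41 and 47 under quantile normalization, the upper 50% and equal length, and 0 to 56 with a library left out. Late KO against late WT called 49, with 11 at the pseudocount, 92 without centring, 5 with quantile normalization and 0 to 111 with a library left out. Without centring the median log2 difference of all regions moved to -0.30 for early KO against early WT and -0.57 for late KO against late WT, against -0.05 and -0.23 with it.

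H3K27ac calls of late KO against late WT (74) were 47 to 75 with a library left out, more falls than rises without either late KO or the first late WT library, and those of early KO against late WT (100) were 54 to 94, and 154 with lists of equal length. At chromosome 15 from 102974401 to 102979200, the DNase fall in late KO against late WT (log2 -2.25) became 0.32 with the upper 50% and 0.40 with equal length, and at chromosome 10 from 57440601 to 57448800 the late WT against early WT difference (3.30) became -0.0703 with equal length, where no early or late WT island was left. Elsewhere the cause was not tested. Over all regions tested, H3K27ac calls made up 8.46% for late KO and 16.7% for early KO, both against late WT. The early KO share was 19.3% with lists of equal length.

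Replicate numbers are shared between groups. Over regions covered in all 8 lists of an assay, same-numbered libraries did not deviate together (correlations between -0.01 and 0.07). This cannot show whether same-numbered libraries share an animal or a culture, which is not stated. With the replicate block the DNase contrasts called 8 (mean of early KO and late WT), 0 (early KO against early WT), 18 (late WT against early WT) and 25 (late KO against late WT), and the H3K27ac contrasts 57 for late KO and 69 for early KO, both against late WT. Shares of all regions with the block are not set beside these counts.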
